A study of Mus musculus with 14 samples.

Results

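Progranulin, the product of granulin (Grn), was followed with 3 genes whose products handle it: sortilin (Sort1), its uptake receptor, prosaposin (Psap), a binding partner, and secretory leukocyte protease inhibitor (Slpi), which shields it from cleavage. All probe sets whose only gene symbol in the platform annotation was one of these 4 names were taken, which gave 9 of the 22626 probe sets tested and 4 of 12393 genes. Grn had 3 probe sets, Sort1 3, Psap 2 and Slpi 1, and all 9 lay in the brighter part of the array, above the median probe set mean of 6.99 on the log2 scale. Values are log2 of the intensity after RMA, a method that corrects background and scales arrays to each other, so that a difference of 1 is a doubling.

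The arrays measured RNA of mouse bone marrow cells sorted for the surface antigen Sca1 and against the receptor cKit. Matrigel arrays (n = 4) came from hosts with an implant of Matrigel, a basement membrane extract, Instigator arrays (n = 5) from hosts with a BPLER tumour, and Non-instigator arrays (n = 5) from hosts with a PC3 tumour of similar size. BPLER is a line of transformed human breast epithelial cells, and PC3 is a human prostate cancer line. Each kind of tumour was represented by 1 line, so the instigating property and the line cannot be told apart. Host strain, age and immune status were not given in the sources used here. Separate animals behind the arrays are not stated either, and p-values therefore refer to the spread among these samples, part or all of which may be technical. In such bulk samples, fewer cells of a type and less RNA per cell cannot be told apart. Kit, which encodes the receptor sorted against, had a mean ± SD at its brighter probe set of 7.52 ± 0.37 over the 4 Matrigel, 7.58 ± 0.22 over the 5 Instigator and 7.37 ± 0.45 over the 5 Non-instigator arrays. The Sca1 gene, Ly6a, was not analysed here.

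Progranulin is a secreted glycoprotein built of granulin repeats, which acts as a growth factor outside the cell and supports enzyme function in the lysosome. Sortilin takes it up from the cell surface and passes it to the lysosome, and prosaposin carries it there by a separate route, through the receptors Lrp1 and the mannose 6-phosphate receptors. Neutrophil proteases such as elastase and proteinase 3 cut progranulin into granulin peptides, and Slpi binds both elastase and progranulin and slows that cut. In bone marrow, progranulin is known as a product of myeloid cells.

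Grn lies on chromosome 11 at chr11:102430507-102436809, Sort1 on chromosome 3 at chr3:108283974-108361519, Psap on chromosome 10 at chr10:60277628-60302600 and Slpi on chromosome 2 at chr2:164354070-164356507 (RefSeq annotation of GRCm38.p6). The 250 bases before the start are printed for the members that have a RefSeq promoter entry, so that the letters before each gene can be read beside its levels. They were searched on both strands for the E-box CACGTG, for TCACATGA and its reverse complement TCATGTGA (a longer box recognised by lysosomal transcription factors of the MiT family, which holds no CACGTG), and for the GC box GGGCGG or CCGCCC. Capitals mark the matches, and each sequence runs 5′ to 3′ on the strand of the gene.
Grn, chr11:102430257-102430506, plus strand: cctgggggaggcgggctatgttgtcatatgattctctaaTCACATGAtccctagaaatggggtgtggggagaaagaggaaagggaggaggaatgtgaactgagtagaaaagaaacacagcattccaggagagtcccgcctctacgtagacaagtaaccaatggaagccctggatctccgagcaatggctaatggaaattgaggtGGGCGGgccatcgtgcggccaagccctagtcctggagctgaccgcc
Psap, chr10:60277378-60277627, plus strand: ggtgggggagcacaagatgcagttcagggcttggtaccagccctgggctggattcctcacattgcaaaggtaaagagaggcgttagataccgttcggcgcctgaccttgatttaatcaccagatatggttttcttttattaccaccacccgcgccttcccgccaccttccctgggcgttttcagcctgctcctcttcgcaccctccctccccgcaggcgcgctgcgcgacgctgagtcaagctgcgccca
Slpi, chr2:164356508-164356757, minus strand: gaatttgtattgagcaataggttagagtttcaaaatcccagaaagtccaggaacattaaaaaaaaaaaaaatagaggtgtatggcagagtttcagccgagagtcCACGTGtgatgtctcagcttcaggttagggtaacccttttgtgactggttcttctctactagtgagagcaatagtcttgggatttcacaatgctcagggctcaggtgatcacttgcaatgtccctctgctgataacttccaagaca
The Grn window held 1 TCACATGA, starting 211 bases before the start, and 1 GGGCGG, starting 46 bases before it. The Slpi window held 1 CACGTG, starting 146 bases before the start, and the printed Psap window held no match. A further Psap window, chr10:60284211-60284460, is not printed and held no match either. Sort1 had no promoter entry and was not searched. Of 32851 mouse promoter windows of the same length, 6.02% held CACGTG, 0.846% held TCACATGA or TCATGTGA and 32.7% held a GC box. A match is a description of the letters and not a binding site, and the absence of a match says only that these letters are not in the window.

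Some arrays need naming before the results. The array titled Instigator 5 carries a description that names the other tumour, and it was kept in its group by its title and its source label. Instigator 4 and Matrigel 3 stood apart. The control probe sets of beta-actin, which read the 5′ and 3′ ends of the transcript separately, differed by -3.41 on Instigator 4, while the other 13 arrays lay between -0.81 and -0.51. For Gapdh the value was -4.03, with -1.16 to -0.73 elsewhere, and for the transferrin receptor it was -2.58, with -2.71 to -1.98 elsewhere. Among the 9 member probe sets Instigator 4 gave the highest of all 14 values at 5 and the lowest at 2, and it was at an extreme at 43.7% of all probe sets. Matrigel 3 had the highest array median, 7.18, and gave an extreme value at 1 of the 9 member probe sets and at 47.6% of all probe sets.

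Grn was highest on average in Instigator arrays at each of its 3 probe sets. At 1438629_x_at, whose suffix marks probes that also match further transcripts, the Matrigel arrays 1 to 4 gave 10.29, 9.96, 10.45 and 10.17, the Instigator arrays 1 to 5 gave 10.21, 10.37, 10.22, 10.88 and 10.28, and the Non-instigator arrays 1 to 5 gave 9.80, 9.92, 9.85, 9.76 and 10.06. Every Instigator array was above every Non-instigator array there, while the Matrigel arrays overlapped both. The difference between the tumour groups was 0.51 (SE 0.13, 95% confidence interval 0.24 to 0.79), or 1.43-fold, and the exact permutation test (two-sided, as in all such tests here) gave p = 0.00794, the smallest that these group sizes allow. At 1456567_x_at the Matrigel arrays gave 10.45, 10.07, 10.45 and 10.03, the Instigator arrays 10.17, 10.31, 10.21, 10.85 and 10.35, and the Non-instigator arrays 9.88, 10.05, 9.96, 9.95 and 10.15. Again no Instigator array reached down to a Non-instigator array, although Instigator 1 at 10.17 and Non-instigator 5 at 10.15 nearly touched. This difference was 0.38 (SE 0.13, 95% confidence interval 0.10 to 0.66), 1.30-fold, with an exact permutation p of 0.00794.

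The brightest Grn probe set, 1448148_at, gave 10.66, 10.48, 10.19 and 10.50 in Matrigel, 10.45, 10.69, 10.67, 10.69 and 10.73 in Instigator and 10.28, 10.30, 10.44, 10.37 and 10.64 in Non-instigator arrays. Instigator 1, the lowest of its group, lay below Non-instigator 5, and the other 4 Instigator arrays lay above all Non-instigator arrays. The difference of 0.24 had an exact permutation p of 0.0159. limma's adjusted p over all probe sets was 0.813 at each of the 3 Grn sets, so that the difference was not called at any of them. With Instigator 5 counted in the group that its description names, the differences at 1448148_at, 1456567_x_at and 1438629_x_at became 0.16, 0.33 and 0.47, and the exact permutation p were 0.143, 0.0476 and 0.019. Without Instigator 4 the difference at 1456567_x_at was 0.26 and that at 1438629_x_at was 0.39, and the exact permutation p was 0.0159 at both.

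The x_at sets tracked each other closely over the 14 arrays (Pearson r = 0.953, Spearman rho = 0.947), and each tracked 1448148_at less (Pearson r = 0.48 and 0.474). Without Instigator 4 and Matrigel 3 the latter values were 0.849 and 0.826. On Matrigel 3 the 3 sets went apart, with 10.19 at 1448148_at, the lowest of all 14 arrays, and 10.45 at both x_at sets, the highest or joint highest of the Matrigel group at 2 decimals.

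Sort1, the receptor, also averaged highest in Instigator arrays at each of its 3 probe sets. At 1423363_at the Matrigel arrays gave 7.38, 7.58, 7.57 and 7.97, the Instigator arrays 7.89, 7.75, 8.07, 7.78 and 7.66, and the Non-instigator arrays 7.47, 7.55, 7.61, 7.49 and 7.34. The tumour groups did not overlap, with Instigator 5 the lowest of its group and Non-instigator 3 the highest of the other, while Matrigel spanned both. The difference was 0.34 (SE 0.11, 95% confidence interval 0.10 to 0.57), 1.26-fold, with an exact permutation p of 0.00794. It was of similar size when Instigator 5 was counted as Non-instigator, at 0.35 with an exact permutation p of 0.00476, and without Instigator 4, at 0.35 with an exact permutation p of 0.00794.

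At 1450955_s_at, whose suffix marks probes shared by several transcripts, Sort1 gave 7.31, 7.32, 7.82 and 7.40 in Matrigel, 7.56, 7.36, 7.72, 7.89 and 7.59 in Instigator and 7.37, 7.36, 7.25, 7.20 and 7.13 in Non-instigator arrays. Only Instigator 2 lay within the Non-instigator range. The difference was 0.36 (SE 0.11, 95% confidence interval 0.12 to 0.61), 1.29-fold, with an exact permutation p of 0.0238. The brightest Sort1 set, 1423362_at, gave 8.43, 8.18, 8.64 and 8.48 in Matrigel, 8.79, 8.52, 8.81, 9.50 and 8.28 in Instigator and 8.83, 8.65, 8.52, 8.24 and 7.99 in Non-instigator arrays. Here the tumour groups overlapped over most of their range, and Instigator 4 stood above all other arrays. The difference was 0.34 (SE 0.20, 95% confidence interval -0.09 to 0.77), with an exact permutation p of 0.23, and without Instigator 4 it was 0.16 with an exact permutation p of 0.484. None of the 3 Sort1 differences passed limma's test, with an adjusted p of 0.813 at each.

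Psap, the binding partner and the precursor of the saposins that help lysosomal enzymes degrade sphingolipids, gave opposite signs at its 2 probe sets. Both carry the suffix a_at, which marks probes that match alternative transcripts of a gene. The brighter set, 1415687_a_at, gave 12.00, 11.82, 11.83 and 12.04 in Matrigel, 12.00, 12.17, 11.95, 12.24 and 11.85 in Instigator and 11.80, 11.91, 11.90, 11.84 and 11.95 in Non-instigator arrays. Instigator 2 and 4 were the highest, Instigator 5 lay inside the Non-instigator range, and Instigator 3 and Non-instigator 5 both stood at 11.95. The difference of 0.16 between the tumour groups (SE 0.09, 95% confidence interval -0.02 to 0.35, 1.12-fold) had an exact permutation p of 0.0635. With Instigator 5 counted as Non-instigator it was 0.22 with an exact permutation p of 0.00476, and the groups then did not overlap.

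The dimmer Psap set, 1421813_a_at, gave 10.76, 10.53, 10.82 and 10.83 in Matrigel, 10.61, 10.94, 10.47, 9.08 and 10.39 in Instigator and 10.53, 10.54, 10.57, 10.34 and 10.56 in Non-instigator arrays. Instigator 4 was far below every other array, and the remaining Instigator arrays lay on both sides of the Non-instigator arrays. The difference between the tumour groups was -0.21 (SE 0.25, exact permutation p = 0.73) with Instigator 4 and 0.09 without it. The dimmer set minus the brighter one was -3.17 on Instigator 4 and between -1.51 and -1.01 on the other 13 arrays. Instigator 4 was also the array whose 5′ and 3′ controls lay farthest apart for beta-actin and Gapdh. The part of transcript integrity in this gap was not tested.

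For Slpi, the inhibitor, the sign of the difference between the tumour groups changed when Instigator 4 was left out. At its only probe set, 1448377_at, it gave 11.38, 11.01, 11.39 and 11.30 in Matrigel, 11.61, 11.13, 11.05, 9.91 and 11.66 in Instigator and 11.20, 11.06, 11.13, 11.25 and 10.91 in Non-instigator arrays. Instigator 4 was the lowest of all 14 arrays, and Instigator 1 and 5 were the highest. The difference was -0.04 (SE 0.25, 95% confidence interval -0.57 to 0.49, exact permutation p = 0.921) over all arrays and 0.25 without Instigator 4. The interval holds differences of the size seen at Grn 1456567_x_at (0.38) in either direction, so 5 arrays a group do not settle the sign for Slpi.

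**Figure D1:**
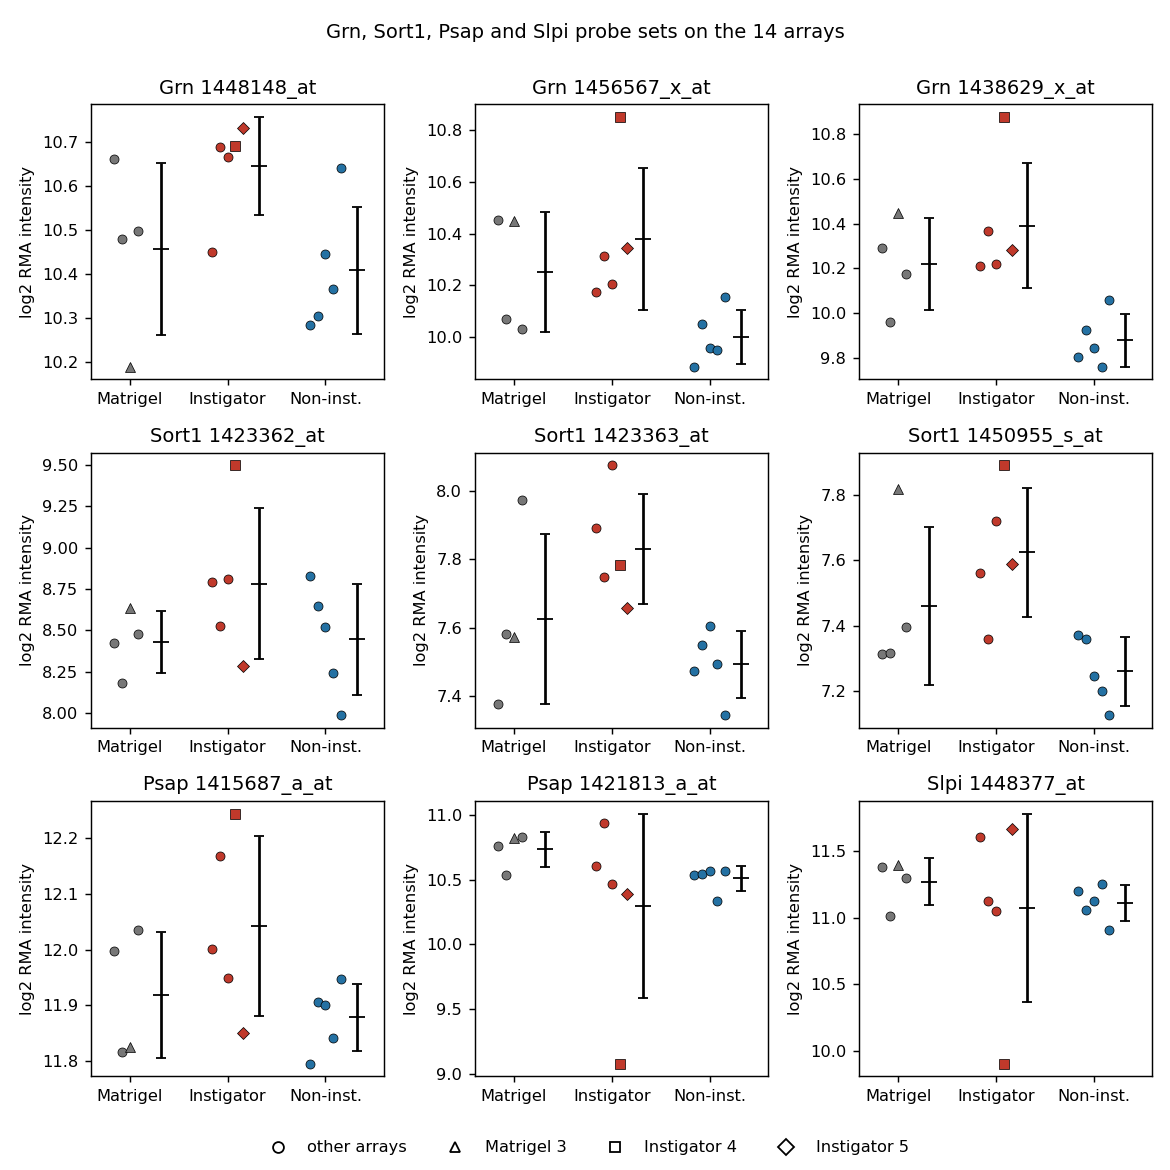
Log2 RMA intensity (vertical axis) of the 9 Grn, Sort1, Psap and Slpi probe sets on each of the 14 arrays, by group, with bars at the mean ± SD; a triangle marks Matrigel 3, a square Instigator 4 and a diamond Instigator 5. At Grn 1438629_x_at, Grn 1456567_x_at and Sort1 1423363_at every Instigator point lies above every Non-instigator point, and Instigator 4 lies far below the rest at Psap 1421813_a_at (9.08) and Slpi (9.91).

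Set side by side, 7 of the 9 member probe sets had the higher mean in Instigator arrays and 2 in Non-instigator arrays, with a median difference of 0.34 against 0.02 over all 22626 probe sets. In 3 of them, all higher in Instigator arrays, the groups did not overlap; over all probe sets 1.2% did not overlap, and 0.751% did so with Instigator higher. At an exact permutation p under 0.05 stood 5 of the 9, where the share of all probe sets was 7.35%, and 4.36% with Instigator higher. limma called 0 of the 9 at an adjusted p under 0.05, and 0% of all probe sets, while 5 of the 9 had an unadjusted limma p under 0.05 against 5.6% of all. The 9 sets read 4 genes, so they are not independent of each other. The members were chosen with earlier results of these data known, and granulin may have been picked on these same arrays. Their counts beside the shares of all probe sets are therefore a description and no test. Without Instigator 4 the groups still did not overlap at 3 member sets (2.52% of all probe sets). With Instigator 5 counted as Non-instigator they did not overlap at 2 sets, Sort1 1423363_at and Psap 1415687_a_at (1.64% of all), and 5 sets had an exact permutation p under 0.05 (9.9% of all).

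**Figure D2:**
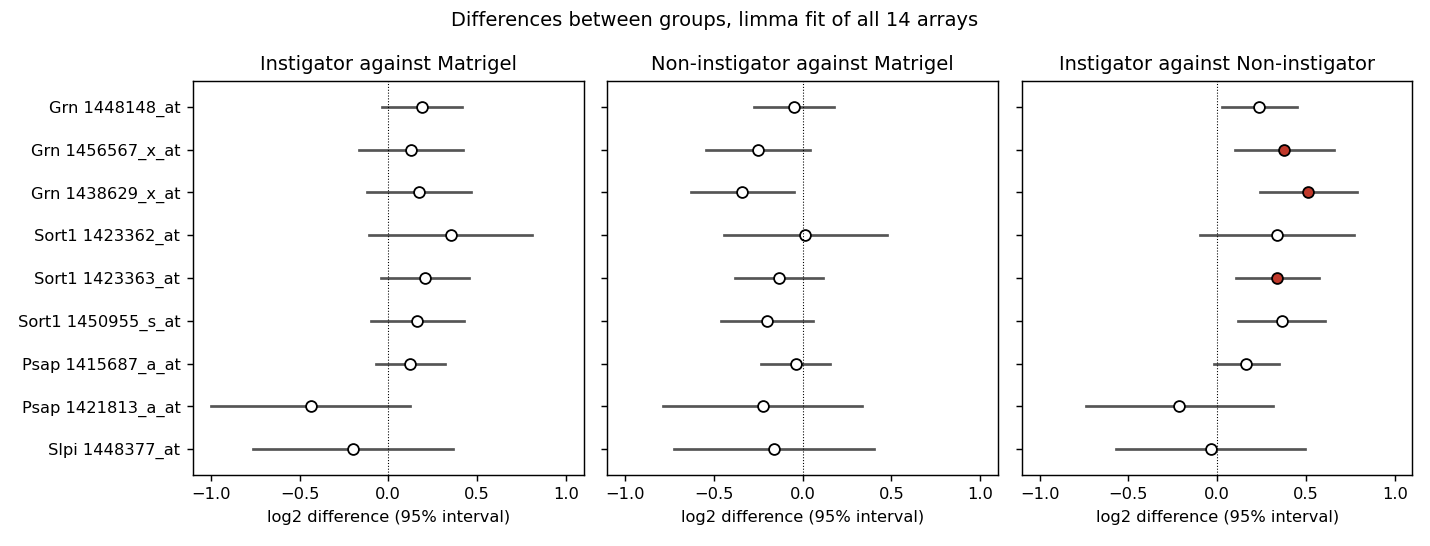
Log2 difference with its 95% confidence interval (horizontal axis) of each member probe set in the 3 comparisons; filled red points mark groups that do not overlap. Between the tumour groups all 3 Grn and all 3 Sort1 sets lie to the right of 0, from 0.24 to 0.51, while Slpi lies at -0.04.

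Between Instigator and Matrigel arrays Grn and Sort1 again had the higher mean in Instigator arrays at each of their probe sets, and none of these differences passed a test. Grn was higher by 0.19, 0.13 and 0.17 at 1448148_at, 1456567_x_at and 1438629_x_at (SE 0.11, 0.14 and 0.14), with exact permutation p of 0.111, 0.5 and 0.397. Sort1 was higher by 0.35, 0.20 and 0.16 at 1423362_at, 1423363_at and 1450955_s_at, with exact permutation p of 0.198, 0.175 and 0.286. Psap differed by 0.12 at the brighter set and by -0.44 at the dimmer one, and Slpi by -0.20 (95% confidence interval -0.76 to 0.36). All of these groups overlapped: 0 of the 9 sets separated them, against 2.69% of all probe sets, and 0 had an exact permutation p under 0.05, against 7.29%. limma called 0 of the 9 and 0% of all, with 10.3% of all at an unadjusted p under 0.05 and 0 of the 9. The median over the 9 was 0.16, beside -0.03 over all probe sets, and 7 of the 9 were higher. Without Instigator 4 the Slpi difference turned to 0.09, Sort1 1423362_at gave 0.17, and the Grn x_at sets gave 0.05 at 1438629_x_at and 0.01 at 1456567_x_at.

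The Non-instigator arrays lay below Matrigel at 8 of the 9 sets, with a median difference of -0.16, beside -0.04 over all probe sets. Grn differed by -0.34 at 1438629_x_at (SE 0.14, 95% confidence interval -0.63 to -0.05), with an exact permutation p of 0.0238, and differed by -0.25 at 1456567_x_at and -0.05 at 1448148_at, with exact permutation p of 0.0794 and 0.651. Psap 1421813_a_at differed by -0.23 with an exact permutation p of 0.0397, and these 2 sets made up the count under 0.05, against 3.75% of all probe sets. Sort1 differed by 0.01, -0.13 and -0.20 at its 3 sets and Slpi by -0.16, with exact permutation p between 0.0952 and 0.937. No member set separated these groups, against 0.897% of all probe sets, and limma called 0 of the 9 and 0% of all, with 1 of the 9 at an unadjusted p under 0.05 against 2.11%. Without Matrigel 3 the count at an exact permutation p under 0.05 was 0, against 1.66% of all probe sets, with a difference of -0.26 at Grn 1438629_x_at (exact permutation p = 0.0536) and of -0.20 at Psap 1421813_a_at (0.0893). The 3 comparisons share arrays, so their values are not independent of each other.

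Ordered by group mean, the level was Instigator, Matrigel, Non-instigator at all 3 Grn sets, at 2 of the 3 Sort1 sets and at the brighter Psap set. At Sort1 1423362_at the Non-instigator mean was above that of Matrigel, 8.44 ± 0.34 (SD, n = 5) against 8.43 ± 0.19 (SD, n = 4). At Slpi and the dimmer Psap set the order was Matrigel, Non-instigator, Instigator, with a mean of 11.07 ± 0.71 (SD, n = 5) for Slpi and 10.30 ± 0.71 (SD, n = 5) for Psap in the Instigator group, whose spread held the low value of Instigator 4. Neighbouring groups in these orders overlapped at all 9 sets.

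Among pairs of members read at their brightest probe sets, Grn and Psap varied together most closely. Over the 14 arrays the brightest probe sets of the 2 genes had a Pearson r of 0.589 (permutation p = 0.0259, Benjamini-Hochberg adjusted 0.102 over the 6 pairs) and a Spearman rho of 0.613 (permutation p = 0.0211, adjusted 0.127). Without Instigator 5 and Matrigel 3, the 2 arrays farthest from the median of Grn, r was 0.716, and without Instigator 4 and Matrigel 3 it was 0.482. Within groups, taken as deviations from the group means, r was 0.372. Grn 1448148_at and Sort1 1423362_at, the receptor, had an r of -0.0149 (permutation p = 0.962). No correlation was computed between the other probe sets of Grn and Sort1. At both Grn 1438629_x_at and Sort1 1450955_s_at, Instigator 4 was the highest array and Matrigel 3 the second, so the value may depend on the probe set. Grn and Slpi had an r of -0.248 (permutation p = 0.427), which was 0.148 without Instigator 4 and Matrigel 3. Sort1 and Psap gave 0.514, Sort1 and Slpi -0.544, and Psap and Slpi -0.557, while without Instigator 4 and Matrigel 3 they gave 0.143, 0.196 and 0.0299. Without the 2 arrays farthest from the median on the first gene, which were Instigator 4 and Non-instigator 5 for both Sort1 pairs and Instigator 2 and 4 for the last, they gave 0.151, -0.0364 and 0.0981, so these relations rest on those arrays. None of the 6 pairs passed after adjustment. The 2 Psap probe sets themselves had an r of -0.394 (permutation p = 0.157), and 0.842 without Instigator 4 and Matrigel 3.

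**Figure D3:**
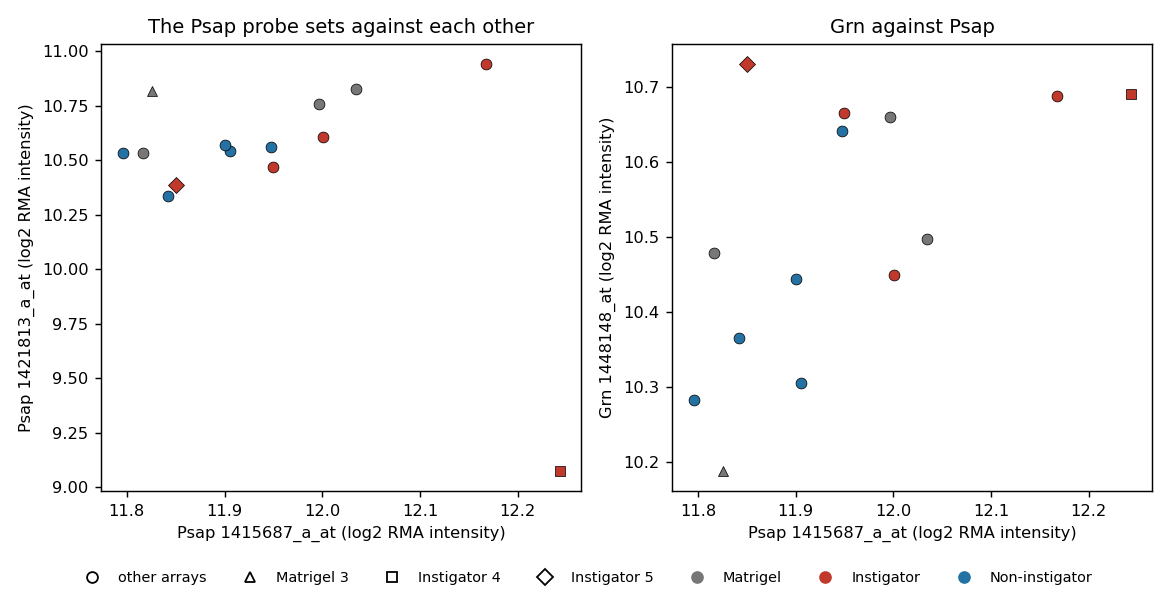
Log2 RMA intensity of Psap 1421813_a_at (left panel, vertical axis) and of Grn 1448148_at (right panel, vertical axis) against Psap 1415687_a_at (horizontal axes), 1 point per array, coloured by group, with a triangle for Matrigel 3, a square for Instigator 4 and a diamond for Instigator 5. Instigator 4 lies far below the other arrays in the left panel (9.08), and in the right panel, where r was 0.589, Instigator 5 has the highest Grn value (10.73) at a low Psap value (11.85).

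The genes whose brightest probe set followed that of Grn most closely over the 14 arrays were Gprc6a, a receptor for amino acids and calcium (Pearson r = 0.813, Spearman rho = 0.881), the predicted gene Gm30058 (0.813 and 0.833), Anpep, which encodes the myeloid surface peptidase CD13 (0.796 and 0.776), the kinesin Kif9 (0.788 and 0.767) and Mmp14, a membrane-bound matrix metalloprotease (0.776 and 0.78). Gprc6a, Anpep, Kif9 and Mmp14 were dim, below the median probe set mean of 6.99. Their highest group means, all of the Instigator group, were 6.59, 5.36, 6.56 and 5.8. Without Instigator 4 and Matrigel 3, Gprc6a had an r of 0.833 and rank 4, Anpep 0.671 and rank 106, and Mmp14 0.731 and rank 50. Sort1 was followed by the splicing regulator Hnrnpll (0.95), the aldehyde dehydrogenase Aldh9a1 (0.948) and the purine salvage enzyme Aprt (0.946). Without those arrays these genes had an r of 0.886, 0.889 and 0.886 and ranks 54, 45 and 56. Psap was followed by Laptm5, a lysosomal membrane protein of blood cells (0.837, and 0.814 with rank 3 without those arrays), the RNA methyltransferase Nsun6 (0.833) and the sorting nexin Snx6 (0.83). Slpi was followed by the phosphohistidine phosphatase Phpt1 (0.908), the apolipoprotein Apom (0.905) and Gm12338 (0.904). Without those arrays these had an r of 0.588, 0.712 and 0.578 and ranks 253, 61 and 278. The ranking has no test, and all these genes share the 14 arrays and their scaling.

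The wider progranulin pathway was described with gene lists, each gene read at its brightest probe set. Between the tumour groups the median over all 12393 genes was 0.03, 58.2% were higher in Instigator arrays, and 299 were higher and 362 lower at an unadjusted limma p under 0.05. No listed gene passed limma's adjusted p in any of the 3 comparisons.

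All 16 genes listed as further progranulin receptors and binding partners were measured. In the comparison of the tumour groups 9 of the 16 were higher, with a median of 0.04, and 0 were higher and 1 lower at an unadjusted p under 0.05. That gene was Tmem106b, a lysosomal membrane protein, with a difference of -0.28 (SE 0.11, exact permutation p = 0.0317), and -0.28 without Instigator 4. Against Matrigel, Tmem106b in Instigator arrays differed by -0.29 (SE 0.12). Lrp1, the receptor that takes up the complex of prosaposin and progranulin, differed by 0.47 between the tumour groups (SE 0.29) and by 0.13 without Instigator 4, whose Lrp1 level of 8.22 compares with at most 6.64 in the other Instigator arrays. Tnfrsf1a, a tumour necrosis factor receptor reported to bind progranulin, differed by 0.14 (SE 0.15) between the tumour groups and by 0.43 (SE 0.16) from Matrigel, or 0.28 without Matrigel 3.

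Of 19 genes listed for the VPS10 family of sortilin and for lysosomal sorting, 18 were measured, and 13 of these had a positive difference between the tumour groups, with a median of 0.07. The one gene at an unadjusted p under 0.05 was Snx2, a subunit that bends endosomal membrane for retrieval of such receptors, at -0.33 (SE 0.14), and -0.19 without Instigator 4. Against Matrigel it differed by -0.55 (SE 0.15). The mannose 6-phosphate receptors that carry prosaposin went opposite ways, with -0.22 (SE 0.17) for Igf2r and 0.15 (SE 0.11) for M6pr. Gga1, an adaptor that binds the sortilin tail, differed by 0.32 (SE 0.23).

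The 16 measured proteases that cut progranulin or are bound by Slpi divided evenly, with 8 higher and 8 lower and a median of 0.01. Cma1, a mast cell chymase, was the one at an unadjusted p under 0.05, at -0.69 (SE 0.19). Its Instigator arrays ran from 6.23 to 7.07 and its Non-instigator arrays from 7.21 to 8.08, with no overlap and an exact permutation p of 0.00794. The neutrophil granule proteases known to cut progranulin gave 0.13 (SE 0.26) for elastase (Elane), 0.38 (SE 0.23) for proteinase 3 (Prtn3) and 0.32 (SE 0.19) for cathepsin G (Ctsg), with overlapping groups. Elane was lowest of its group on Instigator 4 (10.93), and its difference was 0.32 without that array. Ctsl, the lysosomal cathepsin that cuts progranulin into granulins, differed by -0.58 between Instigator and Matrigel arrays (SE 0.21). This was -0.47 without Instigator 4, the lowest of its group at 8.95, and -0.49 without Matrigel 3. Between Non-instigator and Matrigel arrays Ctsl differed by -0.40 (SE 0.21), and between the tumour groups by -0.19 (SE 0.20).

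Of 12 genes listed for lipid hydrolases that need saposins, the products of Psap, 9 were measured. The list is mixed, since it also holds Gm2a, an activator protein and no hydrolase, and Hexa, which acts with Gm2a. All 9 had the higher mean in Instigator rather than Non-instigator arrays, with a median of 0.14, and 0 had an unadjusted p under 0.05. Without Instigator 4, 8 of the 9 were higher, with a median of 0.13. Smpd1, the acid sphingomyelinase, gave 0.31 (SE 0.24) with that array and 0.04 without it, and Arsa, which degrades sulfatide, gave 0.19 and 0.14. Of 24 measured genes of a list of lysosome genes and targets of TFEB, a regulator of lysosome formation that the list also holds with its relative Mitf, 20 were higher with a median of 0.09, and 15 with a median of 0.05 without Instigator 4. Lamp2, a lysosomal membrane protein, was the one at an unadjusted p under 0.05, at 0.19 (SE 0.08, exact permutation p = 0.0159), and Gaa, the acid glucosidase, gave 0.35 (SE 0.23), and 0.10 without Instigator 4. Against Matrigel, 17 of the 24 were higher in Instigator arrays, with a median of 0.10, beside a median of -0.02 and 45.9% higher over all genes. The 4 at an unadjusted limma p under 0.05 were Sgsh (0.51), Atp6v0d1 (0.39), Gaa (0.60) and Lamp2 (0.20). Over all 12393 genes, 450 were higher and 640 lower at that threshold. Atp6v0d1 and Lamp2 fell outside the rule for naming list genes and were picked out after their values were seen. Gaa gave 0.35 without Instigator 4, and Sgsh 0.31 without Matrigel 3. Non-instigator arrays differed from Matrigel by a median of 0.01, with 12 of 24 higher. Over all genes that median was -0.04, with 38.3% higher.

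**Figure D4:**
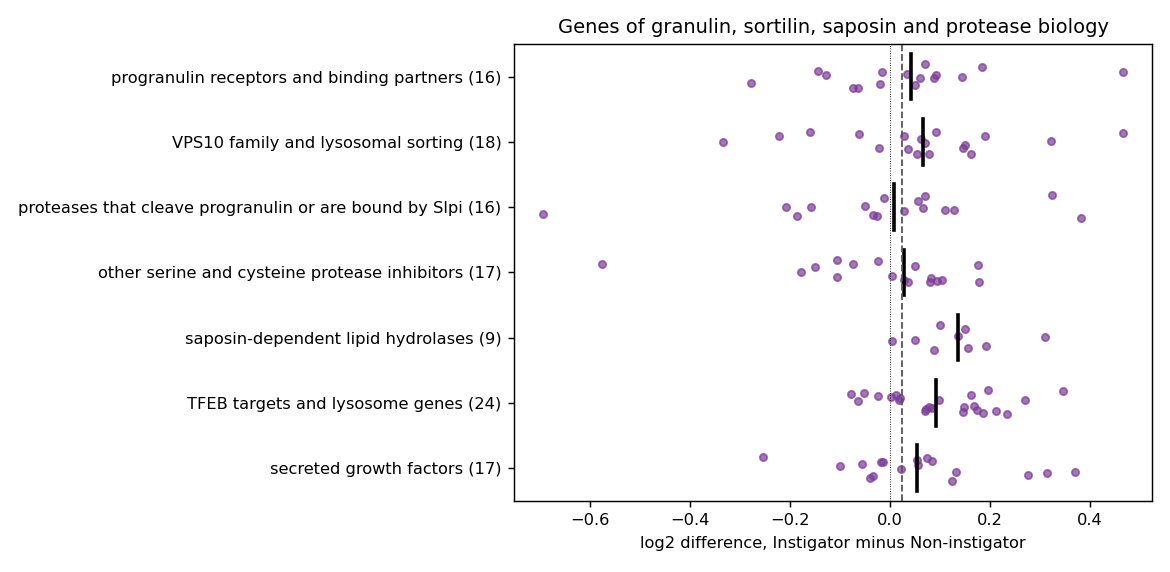
Log2 difference between Instigator and Non-instigator arrays (horizontal axis) of each measured gene of the pathway lists, 1 dot per gene, with a thick bar at the list median and a dashed line at the median of all genes, 0.03; vertical scatter within a list only separates the dots. The dots of the list of saposin-dependent hydrolases, which also holds the activator protein Gm2a, all lie to the right of 0. The protease list has its lowest dot at -0.69 (Cma1).

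Markers of cell types that express progranulin were read beside Grn. Of 19 measured monocyte and macrophage markers 11 had a higher mean in the Instigator group than in the other tumour group, with a median of 0.03, beside 58.2% higher and a median of 0.03 over all genes. The mean level of the list per array ran from 7.79 to 8.05 in Matrigel, 7.78 to 8.32 in Instigator and 7.76 to 7.95 in Non-instigator arrays, and its highest array was Instigator 4. RMA values carry a background, so no marker can be read as zero. Fcgr1, a high-affinity antibody receptor of monocytes, was higher in every Instigator array (7.27 to 8.26) than in any Non-instigator array (6.73 to 7.23), by 0.70 (SE 0.19, exact permutation p = 0.00794). Csf1r, the receptor for macrophage colony-stimulating factor, differed by 0.85 (SE 0.30, exact permutation p = 0.0238), and by 0.50 without Instigator 4. Adgre1, which encodes F4/80, and the monocyte transglutaminase F13a1 differed by 0.47 and 0.31, and by 0.23 and 0.19 without Instigator 4. The 8 markers with a difference below 0 included Vcam1, an adhesion molecule of resident macrophages, at -0.30 (SE 0.23) and the mannose receptor Mrc1 at -0.23 (SE 0.27), both picked out after their values were seen. Without Instigator 4 these were -0.54 and -0.48, C1qb, a complement subunit, went from 0.04 to -0.34, and the list had 2 genes higher and 2 lower at an unadjusted p under 0.05. The part of these cells in the Grn and Sort1 differences was not tested.

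Of 16 measured neutrophil and precursor markers 14 had a higher mean in the Instigator group than in the Non-instigator group, with a median of 0.08 and 0 at an unadjusted p under 0.05. The mean level of the list ran from 11.41 to 11.66 in Matrigel, 11.72 to 11.93 in Instigator and 11.49 to 11.88 in Non-instigator arrays, so that every Instigator array was above every Matrigel array and overlapped the Non-instigator arrays. Lymphoid and dendritic cell markers lay the other way, with a median of -0.32 for B cells, -0.30 for T cells, -0.32 for NK and cytotoxic cells, -0.28 for dendritic cells and -0.26 for plasma cells between the tumour groups. At an unadjusted p under 0.05, 6 of 12 NK and cytotoxic genes were lower. For the other lists this held for 1 gene each, of 17 B cell, 15 T cell, 16 dendritic and 11 plasma cell genes. The mean level per array overlapped between the tumour groups in each of these lists. For T cells it ran from 7.22 to 8.15 in Instigator and from 7.45 to 8.71 in Non-instigator arrays. The part of neutrophil, lymphoid and dendritic cells in the member differences was not tested.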

How the data were processed

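RNA of 14 samples was read on Affymetrix mouse arrays, 1 sample per array. The authors deposited linear intensity values of 22690 probe sets, for which the submitters' processing notes name RMA, affy and R 2.11.0. Options of RMA and a genome build were not given in the sources used here. From the deposited intensity, log2 was taken with no further normalization, and the 64 control probe sets were left out, which leaves 22626. Median intensity per array ran from 119 to 145, and the number of arrays limits the precision. The labels give no batch.

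The platform annotation gives 1 symbol to 20380 probe sets, several to 691 and none to 1555, and those with several were not named. Of those with 1 symbol, 20351 were found in the RefSeq table of GRCm38.p6, which was used for names, gene positions and promoters.

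All arrays entered 1 fit by lmFit, contrasts.fit and eBayes of limma 3.58.1 under R 4.3.3, and p-values had Benjamini-Hochberg adjustment over the 22626 probe sets and calls at an adjusted p under 0.05. The test was checked on simulated data. Two-sided exact permutation tests of the mean difference were run for all 22626 probe sets in the 3 comparisons, and again under changed array sets. With all arrays, 27 of these tests fell on the 9 member probe sets. The exact permutation p had no adjustment, neither over the members nor over the list genes. Correlations used 100000 permutations in numpy 2.4.6, with ranks from scipy 1.17.1. Each gene was read at its brightest probe set on average.

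The members, the lists and the tests were chosen with earlier results of these data known. The study is known for granulin, which may have been picked on these same arrays. Named besides the members were, per list, up to 4 genes with the largest absolute difference between the tumour groups, binding or cleavage genes whose role is described, the 5 genes most like Grn and the 3 most like each other member. Alternatives were quantile normalization, centring on the median, brighter probe sets alone, the compared groups alone, an intensity trend with robust estimation, the replicate number as a block, averaging the probe sets of a gene, Instigator 5 moved, and arrays left out. Whether the replicate numbers of the titles pair the samples was not settled. Over 13 same-numbered pairs the correlation of deviations from the group means ran from -0.201 to 0.269, and pairs with different numbers were not computed for reference. Counts of members and of lists under other array sets, and list genes without Instigator 4 or Matrigel 3, were added after seeing the data.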

Additional observations from a re-analysis of the deposited data

Results flagged for a closer look

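In 27 groups of arrays checked, 5 held a single array far from the others of its group, where chance gives about 1 in 20 groups. The groups share the 14 arrays and the probe sets of 4 genes, so they are not independent, and no excess over chance can be read from the count. At Grn 1448148_at, Instigator 1 was low at 10.45, with the others at 10.67 to 10.73. At the Grn x_at sets, Instigator 4 was high, at 10.85 against 10.17 to 10.35 for 1456567_x_at and at 10.88 against 10.21 to 10.37 for 1438629_x_at. At Sort1 1450955_s_at, Matrigel 3 was high at 7.82, with the others at 7.31 to 7.40. At Psap 1421813_a_at, Non-instigator 4 was low at 10.34, with the others at 10.53 to 10.57. The very low Instigator 4 values of Psap 1421813_a_at (9.08) and Slpi (9.91) did not meet the limit, since the remaining Instigator arrays were themselves spread.

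At Sort1 1423363_at, every Instigator array lay above the Matrigel mean and every Non-instigator array lay below it. The tumour groups differed there by 0.34, with an exact permutation p of 0.00794 and an adjusted p of 0.813 in limma.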

How the results depend on the processing

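Of 603 member differences recomputed under 23 other settings, 585 kept their direction and their side of limma's threshold, 18 changed sign, and 0 passed the threshold. Part of the 585 could not change sign. Leaving out an array of the group not compared leaves a difference as it was. So do brighter probe sets alone, the compared groups alone and the intensity trend with robust estimation, which change only its SE or p. None of the changes of sign touched Grn or Sort1 between the tumour groups. Between Instigator and Matrigel, limma called 1 probe set without Instigator 4 and Matrigel 3, and 0 to 1 with single arrays left out; it was no member. With probe sets of a gene averaged, Psap gave -0.16 in that comparison and -0.024 between the tumour groups. Without Instigator 4 and Matrigel 3, Slpi gave 0.13 against Matrigel and 0.25 between the tumour groups, and Psap 1421813_a_at gave 0.092 between them. Between Non-instigator and Matrigel, Grn 1448148_at gave 0.0052 with Instigator 5 moved and 0.0071 centred on the median, Sort1 1423362_at gave -0.013 with Instigator 5 moved and -0.11 with the mean of probe sets, and Psap 1415687_a_at gave 0.015 centred on the median. With single arrays left out, Slpi ran from -0.35 to 0.092 against Matrigel and from -0.19 to 0.25 between the tumour groups, Psap 1421813_a_at from -0.37 to 0.092 between them, and, for Non-instigator against Matrigel, Grn 1448148_at from -0.14 to 0.019 and Sort1 1423362_at from -0.082 to 0.13. The causes were not tested. The count of members at an exact permutation p under 0.05 between Non-instigator and Matrigel was 2, and 1 with Instigator 5 moved, 0 without Matrigel 3 and 0 without both arrays.

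With the replicate number as a block, limma called 0 probe sets in each comparison, and the Grn differences between the tumour groups were 0.24, 0.38 and 0.51 (adjusted p = 0.805). Of the 13 same-numbered pairs, 5 were correlated above 0.1, which without a reference does not settle whether the numbers pair the samples. The block changed no call.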

Other observations

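Secreted growth factors other than progranulin showed no common direction between the tumour groups. Of 17 measured genes 10 were higher in Instigator arrays, with a median of 0.05. Tgfb1, transforming growth factor beta 1, differed by 0.37 (SE 0.24), Egf by 0.31 (SE 0.14) and Tnf by 0.28 (SE 0.12), the last 2 with exact permutation p of 0.0952 and 0.0635. Without Instigator 4 these were 0.31, 0.20 and 0.20. Cxcl12, the chemokine that holds progenitors in the marrow, differed by -0.25.

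Protease inhibitors other than Slpi divided as 10 higher and 7 lower of 17 measured, with a median of 0.03. Serpinb6b, an intracellular serpin, differed by -0.57 (SE 0.27) between the tumour groups and was 0.85 above Matrigel in Non-instigator arrays (SE 0.29). Stfa3, a stefin of the neutrophil lineage that inhibits cysteine proteases, was above Matrigel by 1.18 (SE 0.34) in Instigator and by 1.00 (SE 0.34) in Non-instigator arrays, and differed by 0.18 between the tumour groups, or -0.02 without Instigator 4. No gene named here passed limma's adjusted p.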
